A study of Capra hircus with 6 samples.

Results

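Cytosolic ribosomal protein genes were examined in the transcriptome of secondary hair follicle dermal papilla cells (SHF-DPCs) of the cashmere goat (Capra hircus). Members were the rows of the gene count table whose identifier or gene symbol follows the RPL, RPS, RPLP0 to RPLP2 or RPSA naming pattern, with the ribosomal S6 kinase genes left out. This rule used names only and no measured value. It found 138 of 15944 rows, which carry 81 different gene symbols. Of these rows, 79 stand under their own gene symbol and 59 under a LOC number, the placeholder that the annotation gives to a locus without an approved name. The LOC rows are further loci with a ribosomal protein symbol. RPL17, RPL34 and RPL37A were listed under LOC numbers alone. LOC100861018 holds the most reads of the RPL17 rows, while LOC102186381 is the only RPL34 row and LOC102186914 the only RPL37A row.

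Ribosomes translate mRNA into protein and are built from ribosomal RNA and many small, mostly basic proteins, each encoded by its own nuclear gene. The small subunit reads the mRNA, the large subunit joins the amino acids, and a flexible stalk of acidic proteins on the large subunit recruits the elongation factors. The mRNAs of these proteins begin with a 5′ terminal oligopyrimidine (TOP) stretch that places their translation under the control of the mTORC1 kinase, and their proteins are needed in near equal amounts.

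The libraries came from primary cultures of wild-type SHF-DPCs grown from the skin of Albas cashmere goats aged 3 years, used between passages 4 and 7. The control group (3 libraries) was cultured without all-trans retinoic acid (ATRA), an active form of vitamin A and a ligand of nuclear receptors, and the ATRA-treated group (3 libraries) received 100 µM ATRA for 24 h. Per the study's methods the cells came from 3 animals, and neither labels nor methods tie a library to an animal. All 6 libraries were given the same batch. The comparison asks how ATRA changed the transcripts of these cells.

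Libraries held between 35532339 and 38012771 counts. The 10 most abundant control genes, none of them a member, took 13.8% of the counts in control and 2.65% in ATRA libraries. Scaling factors (TMM, which set the libraries to a common level over most genes) lay between 0.842 and 0.851 in control and between 1.16 and 1.20 in ATRA libraries. Most of the 12588 genes tested with edgeR's quasi-likelihood test were called in one direction or the other. The main counts of members are therefore given with the share of all genes called the same way. That share is not given for fits with 1 library left out. All 12 dermal papilla and fibroblast markers were listed, and 8 had a mean of at least 1 normalized CPM (CPM being the read count scaled to the size of its library) in each group. PROM1, ALPL, SOX2 and CORIN stayed under 1. The summed level of the 12 markers lay between 85394 and 87094 normalized CPM in control and between 4257 and 4557 in ATRA libraries, with ACTA2, COL1A1, COL1A2 and VIM all lower. Keratinocyte (6 of 9 listed), melanocyte (1 of 4) and adipocyte markers (2 of 3) summed to less than 6 in every library. Endothelial markers (5 of 6 listed) summed to between 0.903 and 1.24 in control and between 6.19 and 9.16 in ATRA libraries. Leukocyte markers (3 of 5 listed) summed to between 9.15 and 12.8 in control and between 41.2 and 44.0 in ATRA libraries. PECAM1 of endothelium went from a mean of 0 to 6.10 normalized CPM, CD14 and CD68 of the monocyte line from 6.91 to 31.3 and from 4.14 to 10.97, and KRT10 from 3.17 to 5.62. CDH1 and EPCAM of keratinocytes, CDH5 of endothelium and CD3E of T cells stayed under 0.1 in both group means. The part of these markers in the results below was not tested.

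Ribosomal protein genes took a larger share of the transcriptome in ATRA-treated cells. Members held 4.99, 5.24 and 4.65% of all counts in the 3 control libraries (4.96% ± 0.296, SD, n = 3) and 8.99, 7.74 and 9.15% in the 3 ATRA libraries (8.63% ± 0.771, n = 3), a ratio of 1.74. The lowest ATRA library lay above the highest control library. The exact permutation test, two-sided, gave p = 0.1, the smallest that 3 libraries against 3 allow. A higher share of counts was not particular to the members. With library size as the only scaling, the median log2FC was 0.52 over all genes tested and 0.84 over the members. On that scale 62.9% of all genes tested were called higher. The 100 most abundant genes that were no members took fewer counts in ATRA libraries, and with them left out of the total the shares were 7.19% ± 0.409 in control and 10.5% ± 0.959 in ATRA libraries, a ratio of 1.46. In bulk RNA, more cells of one kind and more of a transcript in each cell cannot be told apart.

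The shares of both subunits were higher. Large-subunit members went from a mean of 2.88 to 4.99% of the counts and small-subunit members from 2.08 to 3.63%. The ratio of large-subunit to small-subunit counts was 1.394, 1.367 and 1.387 in control and 1.366, 1.392 and 1.367 in ATRA libraries (1.38 ± 0.0138 and 1.37 ± 0.0152, n = 3 each). The groups overlapped, and the exact permutation test gave p = 0.5. LOC rows held a small part of these reads, 0.304% of the counts in control and 0.518% in ATRA libraries.

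**Figure D1:**
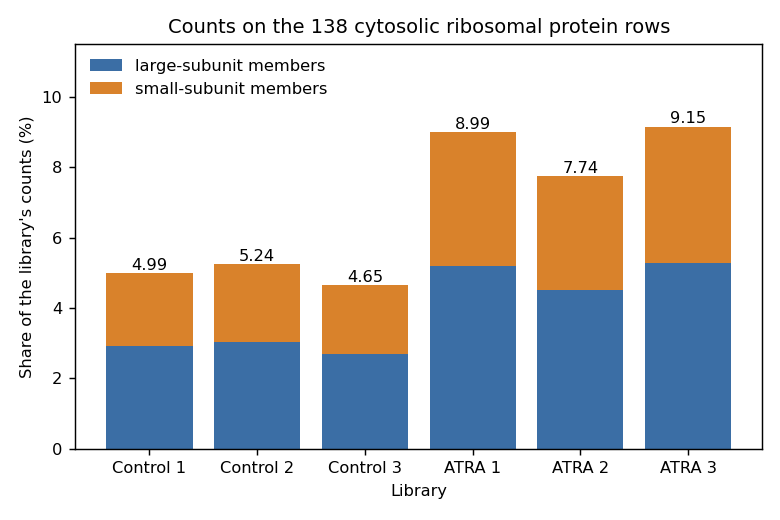
Share of each library's counts, in percent, on the 138 member rows, with large-subunit members in blue and small-subunit members in orange and the summed share above each bar. The 3 ATRA libraries lie between 7.74 and 9.15% and the 3 control libraries between 4.65 and 5.24%, with the 2 colors in nearly the same proportion throughout.

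Gene by gene, most members rose modestly and a few fell. Of the 138 rows, 118 passed the filter on low counts and were tested, 78 under their own symbol and 40 LOC rows. The other 20, which were 19 LOC rows and the muscle paralog RPL3L, never exceeded 18 counts in any library. At an adjusted p under 0.05 (edgeR's quasi-likelihood test, Benjamini-Hochberg over all genes tested), 83 of the 118 tested members were higher in ATRA libraries, 6 were lower and 29 were not called. Of all genes tested, 40.9% were called higher and 38.7% lower. By the study's own function, t.test in R, 41 of the 118 tested members and 33.8% of all genes were called higher at the same threshold. These shares were near each other, so by that test the members showed no clear excess of calls. The median log2FC of the tested members was 0.36 (a fold of 1.29), the middle 50% of members lay between 0.19 and 0.55, and the median over all genes tested was 0.038. A log2FC above 1 or below -1 with an unadjusted p under 0.05, the DEG thresholds of the study's methods, was reached by 3 members upward and 3 downward, all of them LOC rows, against 13.7% of all genes upward and 17.3% downward. With library size as the only scaling, 30 members were DEGs upward, 12 of them under their own symbol, against 26.9% of all genes. The 3 upward DEGs became 1 when Control 1 was left out and 5 when Control 2 was left out (shares of all genes not given).

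Every ATRA library lay above every control library for 66 of the 118 tested members, and every ATRA library lay below for 7, while 45 overlapped. The same held for 41.2% of all genes tested upward and 39.0% downward. The direction of the majority did not rest on the scaling, but its size did. With library size as the only scaling, the median log2FC of all genes tested moved to 0.52 and that of the members to 0.84, with 110 members called higher and 4 lower against 62.9% and 22.7% of all genes. With upper-quartile scaling the median of all genes was 0.11. In each of these fits the members' median lay 0.33 above that of all genes.

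Under their own symbols, 61 of the 78 tested genes were higher, 2 were lower (RPL3 and RPL22L1) and 15 were not called, with a median log2FC of 0.34 and a range from -0.78 to 0.75. The shares of all genes tested to set beside these counts and the next are again 40.9% higher and 38.7% lower. In the large subunit 36 of 46 genes were higher and 2 lower (median 0.35), and in the small subunit 25 of 32 were higher and none lower (median 0.34). Among the 33 tested genes listed here as having a counterpart in bacteria, 25 were higher and 1 was lower, with a median of 0.31. That list holds RPL7A (log2FC 0.25, called higher), which belongs with the proteins of archaea and eukaryotes. Among the 41 listed as found in archaea and eukaryotes or in eukaryotes alone, 34 were higher and none was lower, with a median of 0.40. Whether these medians differ was not tested. Without ATRA 2 the number of tested members called higher was 92, and without ATRA 1 it was 70. The shares of all genes called in those fits are not given, so the change is not a result about the members alone.

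**Figure D2:**
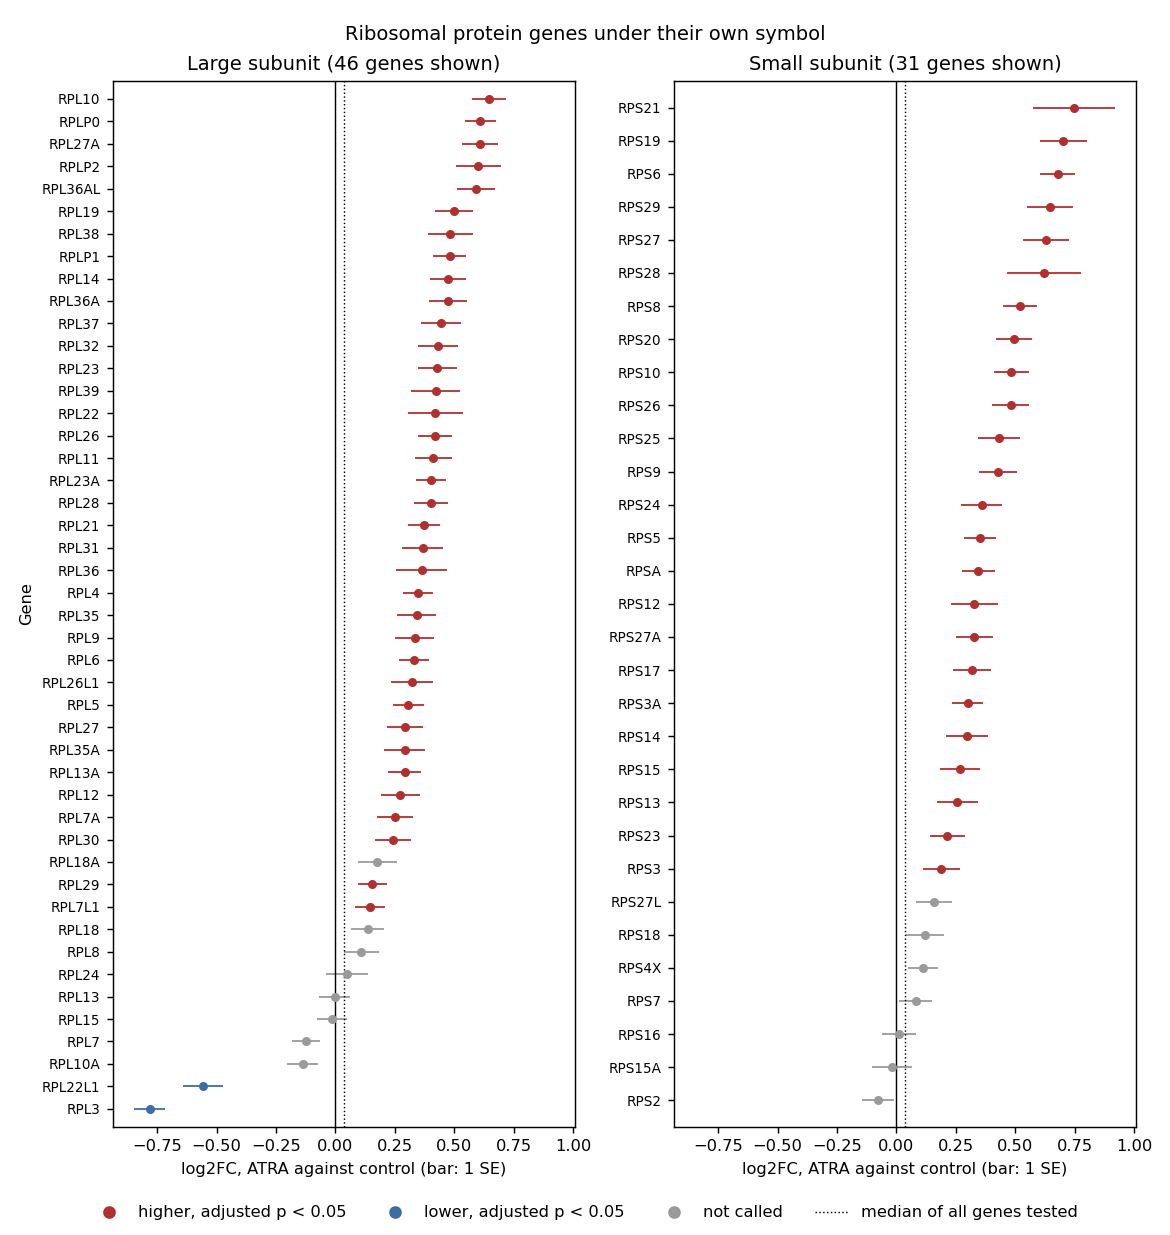
The log2FC of the tested ribosomal protein genes under their own symbols, 1 of them not shown (horizontal axis, with a bar of 1 SE on each side), large subunit at left and small subunit at right, red where higher, blue where lower and grey where not called at an adjusted p under 0.05, with a dotted line at the median of all genes tested. RPL3 and RPL22L1 stand apart at -0.78 and -0.56, while the other genes run from -0.14 to 0.75.

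The transcripts of the stalk proteins were all higher in ATRA libraries. RPLP0, the base of the stalk, measured 2235, 2160.0 and 2051 normalized CPM in control and 3399, 3020.2 and 3423 in ATRA libraries, with a log2FC of 0.61 (SE 0.064, adjusted p = 7.41e-08, edgeR). RPLP1, one of the acidic stalk proteins, measured 988, 1086 and 935 in control and 1428, 1283 and 1488 in ATRA libraries (log2FC 0.48). RPLP2, its partner, measured 487, 555 and 450.1 in control and 774, 634 and 855 in ATRA libraries (log2FC 0.60). In all 3 genes the groups stood clear of each other, with ATRA 2 the lowest of its group. RPL12, which sits beside the stalk base, rose less (log2FC 0.27, adjusted p = 0.0062, edgeR). Its groups overlapped, with ATRA 2 (672) below Control 1 (676) and Control 2 (694). Together with RPL12, the 4 stalk genes had a median log2FC of 0.54.

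RPL5 and RPL11 form a particle with 5S ribosomal RNA, which can also bind the p53 regulator MDM2. RPL5 measured 1126, 1132 and 1048 normalized CPM in control and 1416, 1244 and 1429 in ATRA libraries (log2FC 0.31, SE 0.064, adjusted p = 0.000281). RPL11 measured 592, 642 and 559.9 in control and 835, 691 and 861 in ATRA libraries (log2FC 0.41, SE 0.077, adjusted p = 9.3e-05). Neither gene overlapped between the groups, although in RPL11 the margin between Control 2 and ATRA 2 was narrow.

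RPL10, which is added late to the large subunit and reaches its catalytic core, was the large-subunit gene under its own symbol with the highest log2FC. It measured 1404, 1435 and 1293 normalized CPM in control and 2286, 1903 and 2269 in ATRA libraries, a log2FC of 0.64 (SE 0.072, adjusted p = 1.62e-07). RPL4, which lines the exit tunnel, measured 2619, 2520.5 and 2352 in control and 2976 to 3295 in ATRA libraries, a log2FC of 0.35. RPL13A, which is also known as a part of the interferon-gamma response, had a log2FC of 0.29 with no overlap, and RPL38, known for its part in translating Hox mRNAs, one of 0.48. RPL27A (0.61) and RPL36AL (0.59), the latter a near copy of RPL36A, also rose.

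RPL3 went the other way. This large-subunit protein contacts the peptidyl transferase center. RPL3 measured 1317, 1311 and 1209.7 normalized CPM in control and 756, 681 and 795 in ATRA libraries. All ATRA libraries lay far below all control libraries, with a log2FC of -0.78 (SE 0.065, fold 0.582, adjusted p = 3.12e-09). With library size as the only scaling its log2FC was -0.30 and it was still called lower. In the counts themselves, before any scaling, RPL3 had 40873, 42412 and 38859 reads in control and 32693, 30051 and 32913 in ATRA libraries.

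Among small-subunit genes under their own symbol, RPS21, RPS19 and RPS6 had the highest log2FC. RPS6, the protein that S6 kinase phosphorylates downstream of mTORC1, measured 1286, 1335 and 1186 normalized CPM in control and 2146, 1795 and 2155 in ATRA libraries (log2FC 0.68, SE 0.072, adjusted p = 9.38e-08). RPS19, a protein of the subunit head that is mutated in Diamond-Blackfan anemia, measured 712, 807 and 646 in control and 1234, 971 and 1316 in ATRA libraries (log2FC 0.70, SE 0.099, adjusted p = 8.02e-06). RPS21 measured 143, 182 and 134 in control and 267, 204 and 299 in ATRA libraries, a log2FC of 0.75 with a larger error (SE 0.172, adjusted p = 0.00587). In all 3 genes Control 2 was the highest control library and ATRA 2 the lowest ATRA library, without overlap. Without ATRA 1 the adjusted p of RPS21 was 0.0551.

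RPS27, RPS28 and RPS29, all small proteins, rose by 0.62 to 0.64 on the log2 scale. RPS28 was not called without ATRA 1 (adjusted p = 0.072, edgeR). RPSA, the laminin receptor precursor, measured 1403, 1401.5 and 1302 normalized CPM in control and 1779, 1553 and 1884 in ATRA libraries (log2FC 0.35, adjusted p = 0.000176), and a LOC row for the same protein, LOC102175427, held about as many reads and had a log2FC of 0.25. RPS27A, made as a fusion with ubiquitin, rose by 0.33. RPS14, at the mRNA cleft of the subunit, had a log2FC of 0.30, and Control 2 (701) lay above ATRA 2 (663). RPS3, at the mRNA entry, had a log2FC of 0.19 (adjusted p = 0.0334) with overlap between the groups, and was not called when any of Control 1, Control 3, ATRA 1 or ATRA 3 was left out (adjusted p between 0.111 and 0.24).

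Some members with many reads were not called. RPS2 measured 1962, 1967 and 1809 normalized CPM in control and 1909.9, 1643 and 1884 in ATRA libraries (log2FC -0.078, adjusted p = 0.287). RPL10A had a log2FC of -0.14 (adjusted p = 0.0585) and RPL7 one of -0.12 (adjusted p = 0.0643), and in RPL7 all ATRA libraries lay below all control libraries. With library size as the only scaling the sign of these genes turned, to 0.40 for RPS2, 0.34 for RPL10A and 0.35 for RPL7. RPL10A was called lower without Control 3, without ATRA 1 or without ATRA 3 (adjusted p between 0.0275 and 0.0474), and RPL7 without ATRA 3 (0.0434). DESeq2 also called both lower (adjusted p = 0.0247 and 0.0194).

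The genes moved together between libraries of the same group as well. Of the 78 tested genes under their own symbol, all 78 were lowest in ATRA 2 among the ATRA libraries, and 65 were highest in ATRA 3. Among the control libraries, 77 of 78 were lowest in Control 3 and 62 were highest in Control 2. The libraries differ in one summed level that these genes share, so the genes are not independent counts of the same effect.

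**Figure D3:**
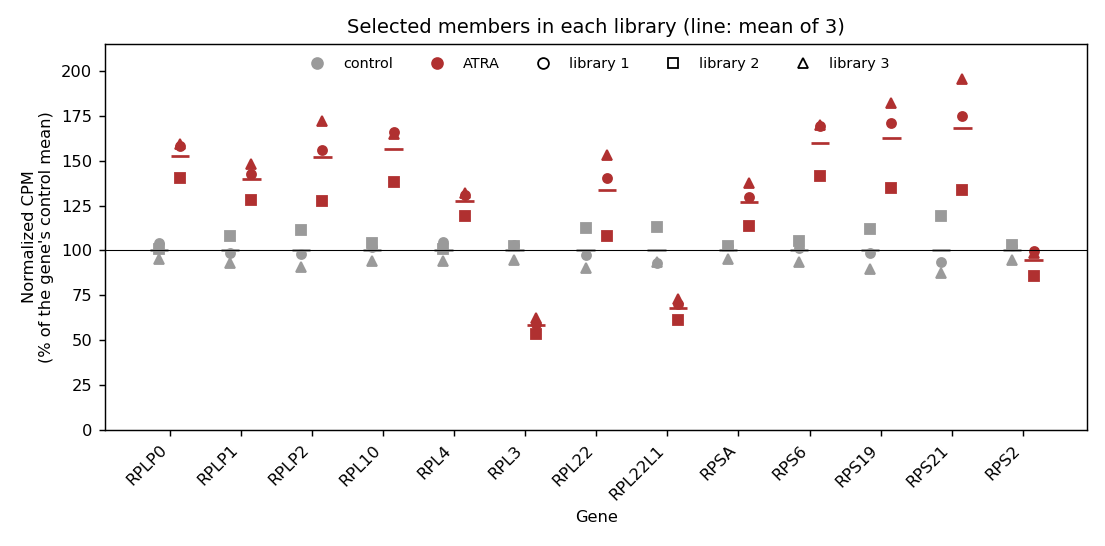
Normalized CPM of 13 selected ribosomal protein genes in each library (vertical axis, as a percentage of the gene's own control mean), control in grey and ATRA in red, with circles, squares and triangles for libraries 1, 2 and 3 of each group and a line at each mean. RPL3 and RPL22L1 lie below their control libraries, RPS2 overlaps its own, RPL22 overlaps through ATRA 2, and the squares of the ATRA group are the lowest red point in every gene.

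To ask which members changed unequally to the rest, the counts were set against the summed member counts of each library, which needs no other gene for scaling. On that scale 18 of the 118 tested members were higher, 21 were lower and 79 were not called, while 21.8% of all genes tested were called higher and 47.8% lower. The count of higher members depended on single libraries. It was 10 without Control 1, 11 without ATRA 3 and 29 without ATRA 2. Lower members numbered between 14 and 25 with 1 library left out, 25 being without ATRA 2 and 14 without Control 1 or without ATRA 1. The shares of all genes called in those fits are not given here.

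Relative to the members' sum, RPL3 fell by 1.10 on the log2 scale (adjusted p = 1.12e-09, edgeR) and RPL22L1 by 0.88 (adjusted p = 1.29e-06). RPL10A had a relative log2FC of -0.46, RPL7 of -0.44 and RPS2 of -0.40, and all 3 were called lower on this scale. At the other end, RPS21 (0.42), RPS19 (0.38), RPS6 (0.36), RPL10 (0.32) and RPLP0 (0.29) were called higher. RPLP2, RPS27, RPL27A, RPS28, RPS29 and RPL36AL were called higher as well (relative log2FC between 0.27 and 0.32), but these calls did not stand with every library left out. All 6 were lost without Control 1, those of RPLP2, RPS28 and RPL36AL also without Control 3, that of RPL36AL without ATRA 1, and those of RPLP2, RPS27, RPS28 and RPL36AL without ATRA 3 (adjusted p between 0.0523 and 0.172). Where a call was lost, the relative log2FC still lay between 0.23 and 0.29. RPL4, RPL5, RPL11, RPL13A, RPL22, RPL38, RPSA, RPS3, RPS14 and RPS27A were not called.

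Paralogs are alternative copies that can take the place of the parent protein. RPL22L1, the paralog of RPL22, measured 51.7, 62.8 and 52.0 normalized CPM in control and 38.8, 33.8 and 40.5 in ATRA libraries (log2FC -0.56, SE 0.086, adjusted p = 1.05e-05, edgeR). All ATRA libraries were below all control libraries. With library size as the only scaling RPL22L1 had a log2FC of -0.080 (adjusted p = 0.393) and was not called. RPL22 itself, an RNA-binding protein of the large subunit, measured 219, 253 and 203 in control and 315, 243 and 345 in ATRA libraries (log2FC 0.42, adjusted p = 0.00587), so that ATRA 2 overlapped the control libraries. Without ATRA 1 the adjusted p of RPL22 was 0.0717.

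The ratio of a paralog's counts to its parent's counts needs no scaling. RPL22L1 had 0.236, 0.249 and 0.256 counts per count of RPL22 in control and 0.123, 0.139 and 0.117 in ATRA libraries, a log2 difference of -0.97. RPS27L, a paralog of RPS27 that p53 is known to induce, had a ratio of 0.361 ± 0.0063 in control and 0.262 ± 0.0213 in ATRA libraries (n = 3 each, log2 difference -0.47). RPL7L1, a paralog of RPL7 that acts in ribosome assembly, had a ratio of 0.0804 ± 0.000845 in control and 0.0971 ± 0.00378 in ATRA libraries (log2 difference 0.27). In these 3 pairs the groups did not overlap, and the exact permutation test gave the smallest possible p of 0.1 for each (0.133 adjusted over the 4 pairs).

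The fourth pair, RPL26L1 and RPL26, had ratios of 0.0453 ± 0.00214 and 0.0424 ± 0.00402, which overlapped (exact permutation p = 0.4). As single genes, RPL7L1 (log2FC 0.15, adjusted p = 0.0389) and RPL26L1 (0.32, adjusted p = 0.00299) were called higher by edgeR, and RPS27L had a log2FC of 0.16 (adjusted p = 0.0624). The call of RPL7L1 was lost without any of Control 2, Control 3, ATRA 1 or ATRA 3 (adjusted p between 0.0929 and 0.209), and RPS27L was called higher without Control 2 or without ATRA 2. Without ATRA 3, RPL26L1 was still called, with a log2FC of 0.21. RPL3L had at most 3 reads in any library.

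The LOC rows spread more widely than the genes under their own symbols. Of the 40 tested, 22 were higher, 4 lower and 14 not called (40.9% and 38.7% of all genes were called higher and lower), with a median log2FC of 0.48 and a range from -3.53 to 1.55. Of all 59 LOC rows, 28 never reached 100 counts in a library and 16 reached 1000 or more. In the gene order of the reference annotation (ARS1.2), 22 of 56 placed LOC members overlapped another gene, against 6 of 78 placed members under their own symbol. How reads shared by near-identical copies were assigned is not given in the sources used here, so the LOC rows, and the parents they resemble, are uncertain.

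The LOC rows with the lowest log2FC carried few reads. LOC102183178 (RPL35A-like) had 232, 224 and 243 reads in control and 34, 25 and 22 in ATRA libraries, a log2FC of -3.53 (SE 0.188, adjusted p = 3.66e-12, edgeR). It lies between TMEM92 (log2FC -5.21) and COL1A1, the gene of a collagen I chain (log2FC -5.62, with reads down from between 853351 and 884303 to between 23430 and 24253). LOC102181343 (RPL22L1-like) had 239, 236 and 193 reads in control and 86, 68 and 79 in ATRA libraries (log2FC -1.95) and overlaps PTPRG (log2FC -0.81). Whether reads of these neighbours were counted on the LOC rows was not tested.

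LOC102186716 carried the symbol RPL9 but was described in the table as a zinc finger protein 160-like gene, and with 14, 11 and 17 reads in control against 5, 5 and 4 in ATRA libraries it had a log2FC of -1.98 (SE 0.472). LOC102180169 (RPS4X) was deeper, with 4256, 4096 and 3955 reads in control and 4404, 3996 and 4231 in ATRA libraries. Its log2FC was -0.39 (adjusted p = 2.01e-05), which turned to 0.086 with library size as the only scaling. This row lies between CDKN1A (log2FC 1.99) and SRSF3 (log2FC -1.37).

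At the upper end, LOC108633247 (RPL10-like) had 8, 21 and 7 reads in control and 42, 43 and 57 in ATRA libraries (log2FC 1.55, SE 0.373, adjusted p = 0.00101, edgeR). LOC102172558 (RPS25) had 117, 197 and 141 reads in control and 515, 356 and 444 in ATRA libraries (log2FC 1.10, SE 0.169, adjusted p = 1.05e-05). LOC102184991 (RPL10) had 411, 419 and 374 reads in control and 982, 845 and 1137 in ATRA libraries (log2FC 0.87). None of these overlapped between the groups. LOC102186914, the only RPL37A row, had a log2FC of 0.95, with 2820 reads in ATRA 3 against 1839 and 1493 in the other ATRA libraries. Without ATRA 3 its log2FC was 0.60 and it was still called, while the call was lost without Control 1, Control 3 or ATRA 1 (adjusted p between 0.0825 and 0.122). LOC108636640 (RPL21-like, at most 21 reads) and LOC106501714 (RPL35A, at most 49) were also called higher. The call of the first was lost without Control 1, Control 3, ATRA 1 or ATRA 2 (adjusted p between 0.118 and 0.182), and that of the second without Control 2 or ATRA 1 (adjusted p = 0.0637 and 0.0682).

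The LOC rows that stand in for RPL17 and RPL34 were higher. LOC100861018 (RPL17) had 25900, 28724 and 24997 reads in control and 51399, 44256 and 50852 in ATRA libraries (log2FC 0.45, SE 0.074, adjusted p = 2.01e-05, edgeR). LOC102186381 (RPL34) had 8017, 9464 and 8024 reads in control and 16905, 13718 and 17471 in ATRA libraries (log2FC 0.49). Neither overlapped between the groups in normalized CPM.

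**Figure D4:**
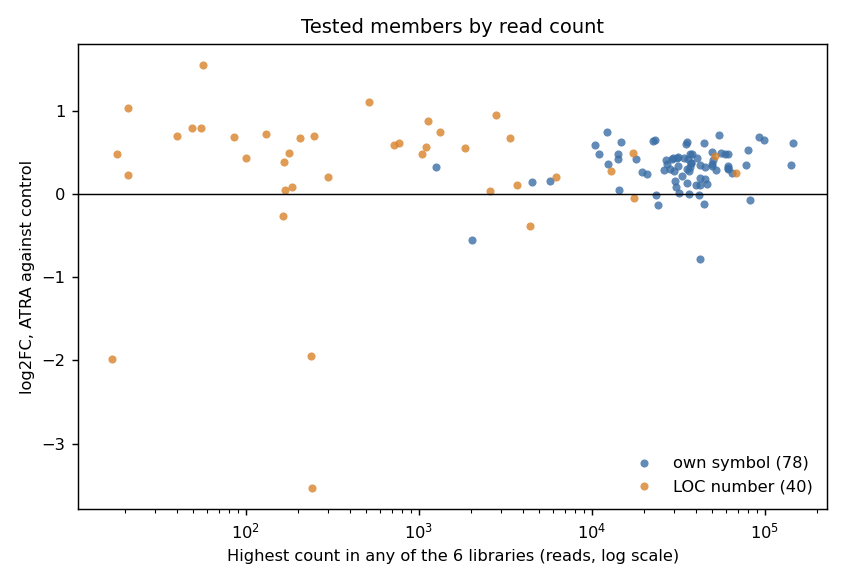
The log2FC of each of the 118 tested members (vertical axis) against its highest count in any library (horizontal axis, log scale), with genes under their own symbol in blue and LOC rows in orange. The 78 genes under their own symbol lie between -0.78 and 0.75, while the LOC rows, most of them with fewer reads, run from -3.53 to 1.55.

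FAU and RACK1 encode ribosomal components but fall outside the naming rule. FAU, the precursor of the small-subunit protein eS30, rose (log2FC 0.67, adjusted p = 7.16e-05, edgeR), and RACK1, a scaffold on the small subunit, rose by 0.62 (adjusted p = 2.83e-08).

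With TMM scaling, other genes of translation and its control were called in both directions, in shares near those of all genes. The other lists together included 77 mitochondrial ribosomal proteins (32 higher, 21 lower) and the mTORC1 control genes. Of their 183 tested genes, each counted once, 75 were higher and 65 lower, beside 40.9% and 38.7% of all genes. These counts became 143 and 16 with library size as the only scaling, beside 62.9% and 22.7% of all genes. On that scale the lists were called higher more often, and lower less often, than all genes. Of 6 elongation factors, 4 were higher (median log2FC 0.31), among them EEF2 (0.55) and EEF1B2 (0.47), while EIF5A (-0.75) and EEF1D (-0.36, turning to 0.11 with library size only) were lower. Of 16 other mRNAs of the TOP class, 11 were higher and 4 lower (median 0.18), from HNRNPA1 (-0.73) and EEF1D to EIF3F (0.64) and TPT1 (0.89). The TOP list shares genes with the elongation factors (EEF2, EEF1B2 and EEF1D among them) and the initiation factors (EIF3F among them). The counts of these lists are therefore not separate results. Of 28 initiation factors, 11 were higher and 13 lower (median -0.042), with the scaffold EIF4G1 (-0.93) and EIF3J (-0.96) lowest and EIF1 (1.15) and EIF4G3 (0.88) highest. EIF5A, HNRNPA1, EIF4G1 and EIF3J stayed negative with library size as the only scaling. Most of the initiation factors called lower turned positive on that scale.

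Ribosome biogenesis factors assemble the members into subunits. Of 32 tested, 8 were higher and 15 lower, with a median log2FC of -0.12. Of all genes tested, 40.9% were called higher and 38.7% lower. FBL, the methyltransferase of box C/D snoRNPs that modifies ribosomal RNA, had 2864, 2925 and 2711 reads in control and 1899, 1636 and 1841 in ATRA libraries (log2FC -1.09, adjusted p = 1.45e-10, edgeR), and UTP20 of the small-subunit processome fell by 1.20 on the log2 scale. RRP12 (0.68) and PES1 (0.49) rose. With library size as the only scaling, the log2FC was -0.61 for FBL and -0.72 for UTP20. Most of the other factors called lower turned positive on that scale, so the direction of this list depended on the scaling.

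Among 18 tested genes of TOP mRNA and mTORC1 control, 10 were higher and 6 lower (median log2FC 0.20). DDIT4, an inhibitor of mTORC1 that acts through TSC1 and TSC2, had 1391, 1458 and 1305 reads in control and 20415, 18638 and 20288 in ATRA libraries (log2FC 3.41, SE 0.071, adjusted p = 3.14e-18, edgeR). SESN1, another inhibitor, rose by 1.00. EEF2K, the kinase that inhibits EEF2, had a log2FC of -1.87, and MLST8, a subunit of mTORC1, one of -1.17, both still negative with library size as the only scaling (-1.39 and -0.69). Transcript levels were measured, not kinase activity or translation.

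**Figure D5:**
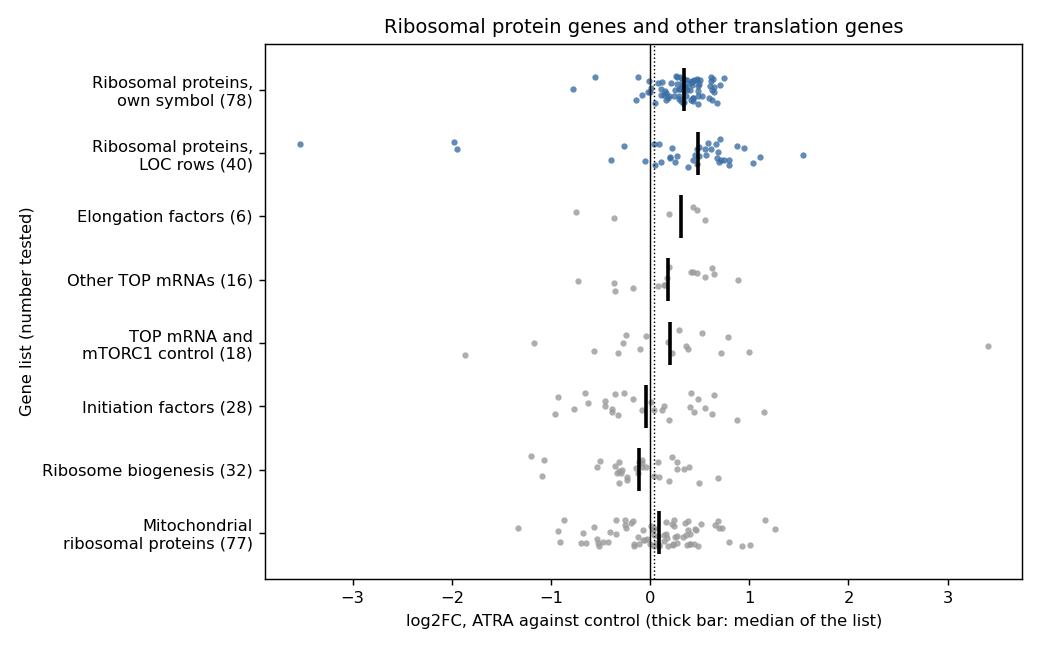
The log2FC of each tested gene (horizontal axis, 1 point per gene) in the ribosomal protein genes, blue, and in 6 other translation lists, grey, with a thick bar at each list's median and a dotted line at the median of all genes tested. The ribosomal protein genes under their own symbol center on 0.34 within a narrow band, and initiation factors (median -0.042) and ribosome biogenesis factors (-0.12) lie on both sides of 0. Some genes stand in more than 1 of the grey lists.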

How the data were processed

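The authors sequenced poly(A)-enriched mRNA of 3 control and 3 ATRA cultures, cleaned the reads with fastp and TrimGalore (v0.6.6), and deposited whole-number, unnormalized counts of reads per gene. The submitters' processing notes name HISAT2, featureCounts and DESeq2. The genome build, annotation, strand setting and treatment of reads that match several genes are not given in the sources used here, so counts of near-identical copies (the LOC rows, RPSA, RPL36A and RPL36AL) are uncertain, as are those of overlapping genes. All 15944 names matched symbols of a RefSeq gene table (ARS1.2), which was used for names and gene order only. No sequences were analysed here.

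Low counts were removed by filterByExpr with treatment as the group, which left 12588 genes, and TMM scaling was followed by edgeR's quasi-likelihood test (robust, two-sided, all 6 libraries, no covariate), with Benjamini-Hochberg adjustment over all genes tested and calls at an adjusted p under 0.05. SE is the absolute log2FC over the square root of F. Normalized CPM divides by the TMM-scaled sum of a library's tested genes. The relative fit replaced the library size by the summed member counts. Single values per library were compared by exact permutation tests, two-sided. For differential expression, the authors' methods give the t.test function of R, which was run here as an alternative on log2 values with a pseudocount of 1 because the files hold counts. The code was tested on simulated data. No library matched another of its group within sampling noise. With 35532339 counts or more per library, the precision is limited mainly for the LOC rows with few reads; p-values measure the spread between these 3 cultures a group.

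Members and gene lists were chosen with earlier results of these data known. Named with values were the 6 highest and 6 lowest tested members by log2FC, the paralogs, 19 members with a set role, and up to 4 genes of each other list (the 2 highest and 2 lowest of those called). RPS21, RPL7, RPL10A, RPL27A, RPL36AL, RPS28, RPS29, RPL17, RPL34 and the neighbours TMEM92, COL1A1, PTPRG, CDKN1A and SRSF3 were named after their values were seen. Single-gene results of some genes are not reported here. Besides that function, the alternatives were scaling by library size alone, upper quartile, RLE or TMM without the members, other filters, DESeq2, omission of each library, and a block for the replicate number. Summing rows by gene symbol and leaving out the LOC rows were chosen after seeing the data. Tests used edgeR 4.0.16 (with limma 3.58.1) and DESeq2 1.42.0 under R 4.3.3; plots used matplotlib 3.10.9.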

Additional observations from a re-analysis of the deposited data

How the results depend on the processing

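The members' median log2FC was positive in all 17 alternatives run, between 0.29 and 0.46 apart from 0.84 with library size as the only scaling. With library size only, 30 members were DEGs upward, against 26.9% of all genes. The log2FC turned positive for LOC102180169 (0.0856, adjusted p = 0.203, edgeR), RPS2 (0.40), RPL7 (0.35) and RPL10A (0.34). Other translation genes called were 143 higher and 16 lower, beside 62.9% and 22.7% of all genes. The test on log2 values with R's t.test function called 41 of 118 members higher, near the share of all genes (33.8%). It gave 0 DEGs upward (edgeR gave 3 and DESeq2 gave 2). With each library left out in turn, 1 to 5 members were DEGs upward, between 70 and 92 were called higher, and 10 to 29 were higher relative to the summed member counts. Shares of all genes are not given for those fits. Summing rows by symbol, or leaving out the LOC rows, left 2 members lower and 0 DEGs in either direction. The log2 paralog ratios kept their sign in all leave-one-out values.

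The replicate numbers were not treated as pairing the samples. The deviations of same-numbered libraries correlated at 0.156, 0.00653 and -0.13. With the number as a block, 74 members were higher, 6 were lower, and 11 were higher relative to the sum. The share of all genes is not given for the block either. Of the single-gene results under all alternatives, 845 kept direction and side of the threshold, 75 lost the call, 17 gained one and 4 turned sign. Depth limits the 20 members not tested, with at most 18 reads each.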

Other observations

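Mitochondrial ribosomal proteins are also encoded in the nucleus but build the separate ribosome of the mitochondrion. Of 77 tested, 32 were higher, 21 lower and 24 not called, with a median log2FC of 0.091, beside 40.9% of all genes tested called higher and 38.7% lower. MRPL38 had 684, 676 and 653 reads in control and 2276, 2021 and 2195 in ATRA libraries (log2FC 1.26, SE 0.078, adjusted p = 3.88e-11, edgeR), and MRPL45 rose by 1.16 on the log2 scale. MRPS28 had 489, 511 and 590 reads in control and 301, 265 and 286 in ATRA libraries (log2FC -1.33, SE 0.107, adjusted p = 1.68e-09), and MRPS25 had a log2FC of -0.93. Both stayed negative with library size as the only scaling (-0.85 and -0.45). Whether the 2 classes of ribosomal protein genes differ was not tested.

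Of 8 chaperones that carry single ribosomal proteins to the nucleolus or the pre-ribosome, 3 were higher and 3 lower (median log2FC 0.022). PDCD2L (0.63) and AAMP (0.52) were highest. TSR2, which carries RPS26, had a log2FC of -0.53 with overlapping groups (adjusted p = 0.0385, edgeR), and LTV1, which works on the small subunit, had -0.29, which turned to 0.19 with library size as the only scaling. Of 5 termination and recycling factors, PELO (0.39) and HBS1L (0.18), a pair that rescues stalled ribosomes, were higher. ETF1 (-0.32) and GSPT1 (-0.19), the release factors, were lower, and their signs turned with library size as the only scaling, to 0.16 and 0.29.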
